A study of Mus musculus with 6 samples.

Results

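Potassium channel genes were examined in the retinal pigmented epithelium (RPE), the pigmented cell layer behind the neural retina. Members were all probe sets annotated with exactly 1 gene symbol that begins with Kcn, and a gene with several was represented by its brightest probe set. This gave 92 genes, measured by 95 probe sets, out of 19938 genes that had such a probe set. RNA came from RPE dissected from E15.5 C57BL/6J embryos, on 3 arrays labelled mutant (*Pax6loxP/loxP;DctCre*) and 3 arrays labelled control (*Pax6loxP/loxP*), so that all 6 samples carried the *loxP*-flanked *Pax6* alleles and only the mutant also carried the Cre transgene. The Cre transgene is named for *Dct*, a pigment gene, and the study describes that the deletion removes the part of *Pax6* encoding the paired domain while a transcript without it remains. Each sample was a tube of RPE from several embryos, sorted by how strongly they were pigmented, with tail tissue kept to check genotypes. The study used littermates as controls. The Mouse Gene 1.0 ST array gives a log2 signal for each probe set, and since a signal also depends on the probes, a higher signal for one gene than for another does not mean more RNA. With 3 arrays in each group, precision is limited throughout.

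Potassium channels let potassium ions leave or enter a cell down their gradient and so set the membrane potential. Voltage-gated channels (*Kcna* to *Kcnd*, *Kcnh*, *Kcnq*) open on depolarisation, inward rectifiers (*Kcnj*) pass current near the resting potential, tandem-pore channels (*Kcnk*) carry leak currents, and calcium-activated channels (*Kcnma*, *Kcnn*) follow intracellular calcium. In the RPE, potassium channels of the apical membrane recycle the potassium brought in by the sodium pump and by cotransport, and channels of the basolateral membrane pass it on towards the choroid.

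The names of the groups need care in these data. The authors' deposited table of group means holds *Kcnq5* at 5.69 in the group named KO and 6.85 in the group named CON, and *Kcnab1* at 5.72 in KO and 6.32 in CON. The arrays as labelled run the other way, with means for *Kcnq5* of 6.85 on the arrays labelled mutant and 5.68 on those labelled control, and for *Kcnab1* of 6.31 on the arrays labelled mutant and 5.72 on those labelled control. Of 90 entries of that table matched by symbol or RefSeq number, 0 had both group means within 0.1 (log2) of the arrays as labelled and 90 did with the group names exchanged. The sample labels were kept, each difference subtracts the mean of the arrays labelled control, and every sign here is therefore opposite to that in the study's list. *Pax6*, the deleted gene, was at a log2 signal of 9.0, 8.97 and 8.74 in the arrays labelled mutant and at 9.15, 9.02 and 9.22 in the arrays labelled control (adjusted p = 0.729, limma). It was not checked here which exons its probes cover, so its signal was not used to check the labels. The pigment genes *Tyr*, *Tyrp1* and *Pmel* had higher means on the arrays labelled mutant. The study, in contrast, describes *Tyr*, *Tyrp1* and *Si* (its name for *Pmel*) as reduced in mutant RPE, by QRT-PCR as well as on the arrays. It also describes less TYR and TYRP1 protein and less pigment in the mutant RPE. Directions below therefore hold for the array labels and may be the reverse of those between the genotypes.

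Array medians lay between 4.86 and 4.93. Of 12 RPE markers, 9 were above the median of every array. Among them were *Otx2*, *Mitf*, *Tyr* and *Pmel*, and also *Rlbp1* and *Rdh5*, genes of the visual cycle. *Rpe65*, *Lrat* and *Rgr*, also genes of the visual cycle, were below the array median on all 6. Markers of other cells were also present, and 7 markers of neurons averaged 7.24, 6.83 and 5.87 on the arrays labelled mutant and 7.54, 5.81 and 6.88 on the arrays labelled control (replicates 1, 2 and 3). The spread within a group was thus wide and the groups overlapped. The 5 lens markers averaged 6.21, 4.81 and 7.58 on the arrays labelled mutant and 5.55, 5.52 and 5.84 on the arrays labelled control. Over all 6 arrays, markers of mesenchyme averaged 10.498 to 10.676 and those of endothelium 7.995 to 8.386. These means do not rank the cell types, since a signal also depends on the probes. In dissected tissue, fewer cells of a type and less RNA per cell cannot be told apart.

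*Kcnq5* and *Kcnab1* were the potassium channel genes that passed the test, both higher in the arrays labelled mutant. This is 2 of 92 genes (2.17%) at an adjusted p under 0.05 from limma, where 0.363% of all 23410 probe sets tested were called (0.282% higher, 0.0812% lower), and 0 channel genes were called lower. The same pair, and no other channel gene, had an unadjusted p under 0.05 with a fold of at least 1.5 (0.427% of all probe sets, 0.308% higher). Without adjustment and at any fold, 9 channel genes had a p under 0.05, 6 higher and 3 lower (9.78%, against 6.07% of all probe sets, 3.41% higher and 2.66% lower). The groups of arrays did not overlap for 12 channel genes, 5 higher and 7 lower, or 13.0%, which is close to the 11.0% over all probe sets (5.98% higher, 4.97% lower). The log2 difference was under 0.25 in size for 86 of 92 channel genes (93.5%, against 96.8% of all genes). Its median over the channel genes was -0.02, with 40 above 0 and 52 below (43.5% above 0, against 49.6% of all genes). By the methods' t-test 0 of all 23410 probe sets had an adjusted p under 0.05, channel genes included, and 1319 probe sets and 6 channel genes had an unadjusted one.

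**Figure D1:**
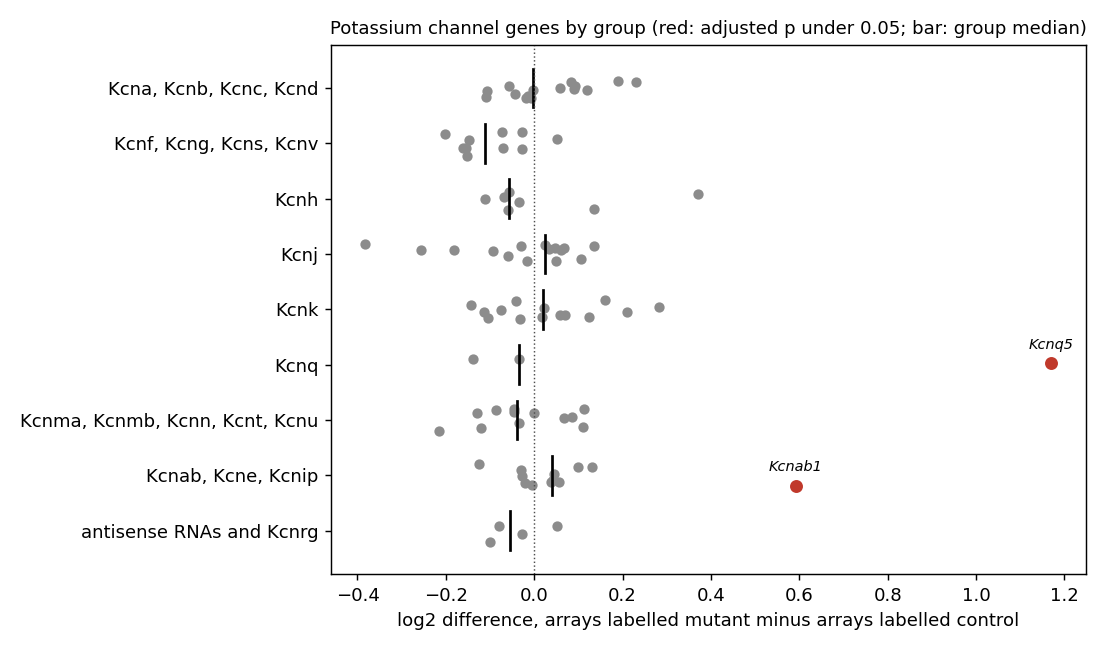
Log2 difference (arrays labelled mutant minus arrays labelled control) of each of the 92 potassium channel genes, by channel group, with a black bar at the median of the group and red points at an adjusted p under 0.05. Only Kcnq5 (1.17) and Kcnab1 (0.59) are red, and the other points lie between -0.38 and 0.37.

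*Kcnq5* encodes a pore-forming subunit of voltage-gated channels that carry the M-type current, a slow current that stays open near the resting potential, and KCNQ channels have been described in the RPE of primates. Log2 signals were 6.88, 6.89 and 6.78 on the arrays labelled mutant and 5.52, 5.78 and 5.73 on the arrays labelled control. The groups lay far apart, with the lowest array labelled mutant above the highest array labelled control. The difference was 1.17 with a standard error of 0.08 (adjusted p = 0.00117, limma), or 2.25-fold, and its 95% confidence interval ran from 0.99 to 1.35. It passed with any 1 array left out, with differences of 1.09 to 1.22. It also passed with the neuron marker mean of each array as a covariate (1.16, adjusted p = 5.5e-04), a setting chosen after seeing the data. Those means overlapped between the groups, so the covariate could hardly change the difference, and no conclusion is drawn from it. The lists for RPE, smooth muscle and surface epithelium also had all 3 arrays labelled mutant above all 3 labelled control, at 7.65 to 7.73 against 7.13 to 7.47 for RPE, at 7.68 to 7.76 against 7.23 to 7.39 for smooth muscle, and at 8.90 to 9.23 against 8.49 to 8.80 for surface epithelium. In the RPE list 2 of 12 genes passed, *Rlbp1* (1.0, adjusted p = 0.0102) and *Tyrp1* (0.94, adjusted p = 0.0196), and 10 of 12 lay above 0, as labelled and so opposite to the study's direction for *Tyrp1*. In the smooth muscle list the shift rested on *Myh11*, the smooth muscle myosin heavy chain (difference 1.78, adjusted p = 6.99e-05), and the other 4 of its 5 genes had an adjusted p of at least 0.909. In the surface epithelium list 0 genes passed, and the largest difference was that of *Krt12* (1.09, adjusted p = 0.0787). Its other genes differed by 0.02 (*Trp63*) to 0.25 (*Krt14*). The part of these cells in the *Kcnq5* and *Kcnab1* values was not tested.

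Of the other *Kcnq* genes measured, *Kcnq1* and *Kcnq3* did not pass. *Kcnq1*, an epithelial and cardiac member, had signals of 5.82, 5.75 and 5.73 on the arrays labelled mutant and 5.83, 5.72 and 5.84 on the arrays labelled control. These overlap, and the difference was -0.03 (95% confidence interval from -0.17 to 0.11). *Kcnq3*, which forms M-channels in neurons together with other KCNQ subunits, had 4.26, 4.36 and 4.38 on the arrays labelled mutant and 4.53, 4.39 and 4.50 on the arrays labelled control. Its groups did not overlap but were close, at a difference of -0.14 (standard error 0.06, adjusted p = 0.856), and its signal was below the median of every array. Both confidence intervals lie below that of *Kcnq5*.

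*Kcnab1* encodes a cytoplasmic beta subunit that binds voltage-gated channels of the *Kcna* family and speeds their inactivation. Its log2 signal was 6.22, 6.42 and 6.30 on the arrays labelled mutant and 5.67, 5.82 and 5.67 on the arrays labelled control, so the groups did not overlap. The difference was 0.59 with a standard error of 0.08 (adjusted p = 0.0223, limma), or 1.51-fold, and its 95% confidence interval ran from 0.42 to 0.77. Its size moved little when an array was left out, from 0.54 to 0.64, but the adjusted p passed only without control replicate 2 (0.0333). It was 0.0534, 0.117 and 0.111 without mutant replicates 1, 2 and 3, and 0.0646 and 0.151 without control replicates 1 and 3. With the unnamed probe sets included in the test it was 0.105.

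**Figure D2:**
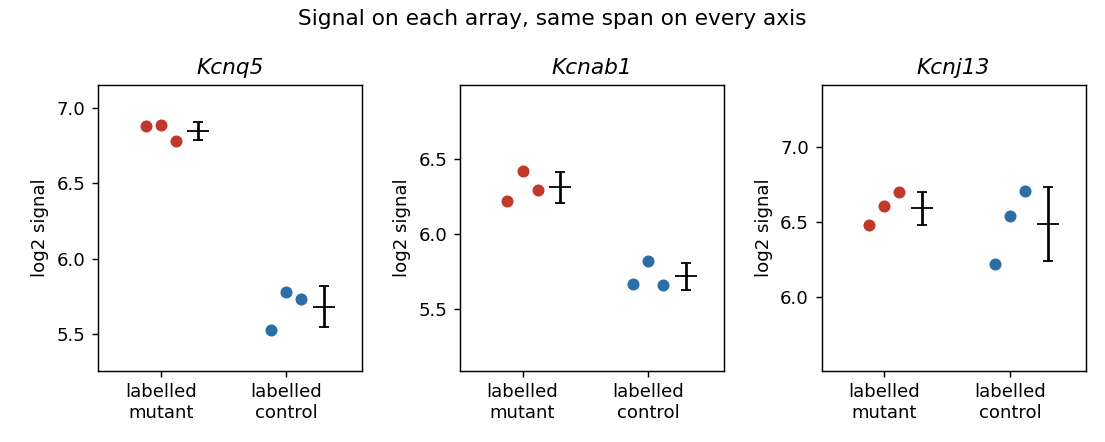
Log2 signal of Kcnq5, Kcnab1 and Kcnj13 on each array (points; replicates 1 to 3 from left to right), arrays labelled mutant on the left and arrays labelled control on the right, with the mean and SD of the 3 arrays as a black bar. The groups are apart for Kcnq5 and Kcnab1 and overlap for Kcnj13, where control replicate 1 is lowest at 6.22.

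*Kcnj13* encodes an inwardly rectifying channel of the apical RPE membrane, and its mutations cause retinal degeneration in humans. Its log2 signal was 6.48, 6.60 and 6.70 on the arrays labelled mutant and 6.22, 6.54 and 6.70 on the arrays labelled control. All values but that of control replicate 1 were alike across the groups. The difference was 0.11 with a standard error of 0.12 (adjusted p = 0.99, limma; 95% confidence interval from -0.17 to 0.39), and it was -0.03 without control replicate 1. That array also had the lowest mean over the 12 RPE markers, 7.13, and the highest over the neuron markers, and the part of this in its *Kcnj13* value was not tested. The interval leaves out a difference as large as that of *Kcnq5*. In the RefSeq annotation *Kcnj13* lies within the span of *Gigyf2*.

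The start sites of these 3 genes are shown because *Kcnq5* and *Kcnab1* were called together and *Kcnj13* was not. They were searched on both strands for CACGTG and CATGTG, which are among the E-box forms bound by MITF in pigment cells. Other forms that the study lists as putative MITF sites, such as CAGCTG, were not searched. CACGTG is its own reverse complement, CATGTG reads CACATG on the other strand, and no letters are shared between the hits. Each window of 300 bases holds 250 before and 50 after an annotated start, from RefSeq in build GRCm38.p6. Sequences read 5′ to 3′ on the strand of the gene, with only the E-box forms searched in capitals. The *Kcnq5* windows are chr1:21962601-21962900 and chr1:21961893-21962192, on the minus strand.
Kcnq5 start 1: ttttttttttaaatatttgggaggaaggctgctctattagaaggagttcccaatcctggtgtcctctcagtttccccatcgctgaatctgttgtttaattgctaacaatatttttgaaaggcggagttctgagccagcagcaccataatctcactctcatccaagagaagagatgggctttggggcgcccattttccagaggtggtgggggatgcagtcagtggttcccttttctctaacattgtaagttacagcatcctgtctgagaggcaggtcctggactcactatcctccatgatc
Kcnq5 start 2: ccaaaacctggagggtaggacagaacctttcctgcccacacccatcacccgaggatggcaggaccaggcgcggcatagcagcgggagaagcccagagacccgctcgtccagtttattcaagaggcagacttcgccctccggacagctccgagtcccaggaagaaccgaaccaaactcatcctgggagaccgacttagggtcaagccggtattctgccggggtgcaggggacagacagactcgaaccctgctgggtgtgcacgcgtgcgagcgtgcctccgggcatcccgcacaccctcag
The *Kcnab1* windows are chr3:64948962-64949261, chr3:65108764-65109063 and chr3:65187853-65188152, on the plus strand.
Kcnab1 start 1: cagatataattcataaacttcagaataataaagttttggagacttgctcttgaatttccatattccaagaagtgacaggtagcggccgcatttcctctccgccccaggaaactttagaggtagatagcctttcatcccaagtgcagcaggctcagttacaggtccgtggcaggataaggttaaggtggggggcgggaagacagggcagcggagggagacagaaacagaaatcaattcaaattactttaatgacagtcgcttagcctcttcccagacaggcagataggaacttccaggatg
Kcnab1 start 2: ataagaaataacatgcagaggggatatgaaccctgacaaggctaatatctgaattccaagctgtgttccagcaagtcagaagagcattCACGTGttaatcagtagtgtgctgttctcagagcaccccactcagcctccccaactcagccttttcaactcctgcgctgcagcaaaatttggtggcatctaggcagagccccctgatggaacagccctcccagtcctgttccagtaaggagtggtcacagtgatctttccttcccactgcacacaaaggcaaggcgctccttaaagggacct
Kcnab1 start 3: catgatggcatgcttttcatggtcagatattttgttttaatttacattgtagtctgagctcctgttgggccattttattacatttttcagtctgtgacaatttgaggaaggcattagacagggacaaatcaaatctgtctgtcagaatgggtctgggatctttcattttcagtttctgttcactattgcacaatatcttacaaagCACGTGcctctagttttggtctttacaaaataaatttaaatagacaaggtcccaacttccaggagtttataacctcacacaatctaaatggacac
The *Kcnj13* window is chr1:87394680-87394979, on the minus strand.
Kcnj13 start 1: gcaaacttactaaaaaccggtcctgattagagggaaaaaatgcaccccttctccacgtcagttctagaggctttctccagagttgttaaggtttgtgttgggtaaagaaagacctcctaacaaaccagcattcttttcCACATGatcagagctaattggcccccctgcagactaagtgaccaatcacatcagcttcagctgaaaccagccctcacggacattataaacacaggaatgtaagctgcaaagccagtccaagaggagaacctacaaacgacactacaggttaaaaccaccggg

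Neither form of E-box occurs in the 2 windows of *Kcnq5* or in the first of *Kcnab1*. *Kcnab1* has a CACGTG that begins 162 bases before start 2 and another 45 bases before start 3, and *Kcnj13* has a CATGTG, read as CACATG, 112 bases before its start. Of the 92 channel genes, 70 were matched to windows. CACGTG was present in 7 of their 95 windows (7.37%), against 7.15% of all 32851 windows. CATGTG was present in 3 (3.16%), against 14.2% of all windows. These matches are letters in a window, and which of the starts is used in the RPE was not measured.

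Among the inward rectifiers, 3 genes had an unadjusted p under 0.05 (20.0%, against 6.07% of all probe sets), and 0 of 15 passed after adjustment. All 3 were lower in the arrays labelled mutant, the direction of 2.66% of all probe sets. *Kcnj10*, a potassium-buffering channel of glia and also of some melanocytes, had signals of 3.43, 3.46 and 3.32 on the arrays labelled mutant and 3.53, 3.86 and 3.96 on the arrays labelled control. The groups did not overlap, but control replicate 1 lay near the arrays labelled mutant, and the signal was below the median of every array. Its difference was -0.38 (standard error 0.11, adjusted p = 0.474, limma). Without control replicate 1 it was -0.51 (adjusted p = 0.0536). *Kcnj3*, a subunit of G protein-gated channels, had 5.18, 5.31 and 5.28 on the arrays labelled mutant and 5.38, 5.72 and 5.45 on the arrays labelled control, a difference of -0.26 (standard error 0.09, adjusted p = 0.708). *Kcnj4*, a strong inward rectifier, had 4.01, 4.07 and 4.07 on the arrays labelled mutant and 4.25, 4.20 and 4.25 on the arrays labelled control. Its groups were tight and apart, at a difference of -0.18 (standard error 0.05, adjusted p = 0.507), but its signal was also below the median of every array. The groups did not overlap for 5 of the 15 (33.3%, against 11.0% of all probe sets). All 5 were lower in the arrays labelled mutant, where 4.97% of all probe sets did not overlap in that direction. Of these, *Kcnj10*, *Kcnj4*, *Kcnj12* and *Kcnj6* were below the median of every array, and only *Kcnj3* was above it on all 6. The median difference over the 15 was 0.03, with 8 above 0 and 7 below.

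**Figure D3:**
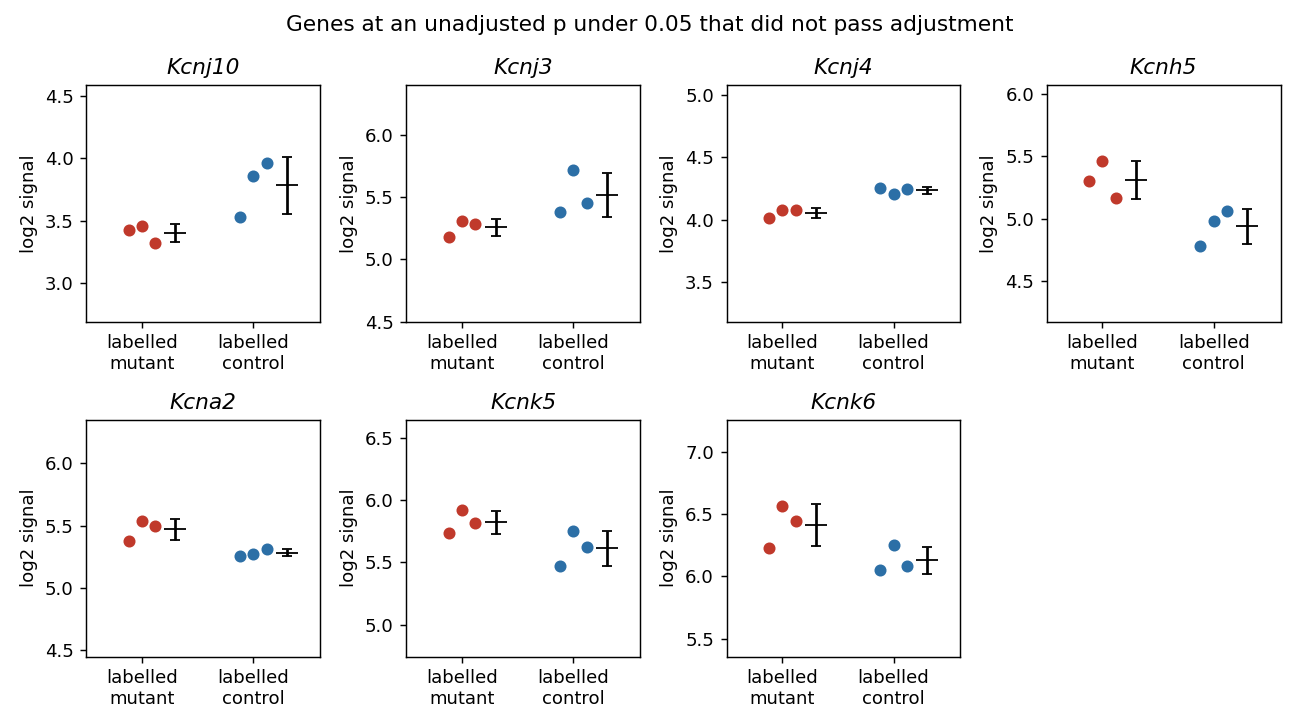
Log2 signal on each array (points; replicates 1 to 3 from left to right) of the 7 channel genes at an unadjusted p under 0.05 that did not pass adjustment, arrays labelled mutant on the left and arrays labelled control on the right, with mean and SD as black bars. Kcnj10, Kcnj3 and Kcnj4 are lower and Kcnh5, Kcna2, Kcnk5 and Kcnk6 higher in the arrays labelled mutant, all by less than 0.4, and Kcnk5 and Kcnk6 overlap between the groups.

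Of 14 tandem-pore genes 0 passed after adjustment. *Kcnk6*, a leak channel subunit, had signals of 6.23, 6.56 and 6.45 on the arrays labelled mutant and 6.05, 6.25 and 6.08 on the arrays labelled control, a difference of 0.28 (standard error 0.10, adjusted p = 0.643, limma). *Kcnk5*, a leak channel that responds to external pH, had 5.74, 5.92 and 5.82 on the arrays labelled mutant and 5.47, 5.75 and 5.62 on the arrays labelled control, a difference of 0.21 (standard error 0.09, adjusted p = 0.786). For both genes mutant replicate 1 lay below control replicate 2. *Kcnk1*, the probe set with the highest signal of this group, had 7.58, 7.55 and 7.28 on the arrays labelled mutant and 7.71, 7.12 and 7.68 on the arrays labelled control. Its values overlapped throughout, at a difference of -0.03 (95% confidence interval from -0.41 to 0.34). The 14 differences ran from -0.14 to 0.28, with a median of 0.02.

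Of 7 *Kcnh* genes, which encode the channels of the ether-à-go-go family, 0 passed after adjustment. *Kcnh5* had signals of 5.30, 5.46 and 5.16 on the arrays labelled mutant and 4.78, 4.98 and 5.06 on the arrays labelled control. The groups did not overlap, and its difference of 0.37 (standard error 0.10, adjusted p = 0.396, limma) was the largest above 0 after those of *Kcnq5* and *Kcnab1*. *Kcnh2*, the cardiac repolarising channel and the brightest probe set of this group, had a difference of -0.11 (95% confidence interval from -0.32 to 0.10). The median over the 7 genes was -0.06.

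The pore-forming *Kcna*, *Kcnb*, *Kcnc* and *Kcnd* genes held 1 of 15 at an unadjusted p under 0.05 (6.67%, near the 6.07% of all probe sets) and 0 after adjustment. *Kcna2*, a channel of axons, had signals of 5.38, 5.54 and 5.50 on the arrays labelled mutant and 5.26, 5.27 and 5.31 on the arrays labelled control. The groups did not overlap, at a difference of 0.19 (standard error 0.06, adjusted p = 0.627, limma). Its dimmer probe set differed by 0.08 (adjusted p = 0.99). *Kcnb2*, a delayed rectifier, was at 5.25, 5.25 and 5.26 on the arrays labelled mutant and at 5.27, 4.70 and 5.10 on the arrays labelled control, so its difference of 0.23 (95% confidence interval from -0.07 to 0.53) came with a wide spread among the arrays labelled control. *Kcna6*, the brightest probe set of the group, differed by 0.09 (95% confidence interval from -0.15 to 0.33). The channels of the *Kcna* family are the partners of the *Kcnab1* protein. All 15 differences in this group were under 0.25 in size, as were those of 96.8% of all genes, and their median was 0.00 (-0.0023).

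The subunits of the *Kcnf*, *Kcng*, *Kcns* and *Kcnv* families form no channel alone and modify *Kcnb* channels. Of these 10 genes 0 passed, with or without adjustment, and 9 lay below 0. *Kcns3* had signals of 4.62, 4.78 and 4.79 on the arrays labelled mutant and 4.91, 4.81 and 4.94 on the arrays labelled control, a difference of -0.15 (standard error 0.07, adjusted p = 0.84, limma). *Kcnv2*, a subunit of photoreceptor channels, differed by -0.20 (95% confidence interval from -0.43 to 0.02) and *Kcng2* by -0.15 (from -0.43 to 0.13). The median was -0.11 and became -0.0059 without control replicate 1.

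Of 12 calcium-activated channel genes and their relatives (*Kcnt* and *Kcnu*, gated by sodium and by pH) 0 passed, with or without adjustment. *Kcnn3*, a small-conductance channel and the brightest probe set of this group, had signals of 7.05, 7.01 and 7.16 on the arrays labelled mutant and 6.88, 6.95 and 7.04 on the arrays labelled control. These overlap, at a difference of 0.11 (95% confidence interval from -0.05 to 0.27). *Kcnmb1*, the smooth muscle beta subunit of large-conductance channels, was at 2.98, 2.96 and 3.04 on the arrays labelled mutant and at 2.94, 2.80 and 2.91 on the arrays labelled control, below the median of every array, with a difference of 0.11 (95% confidence interval from -0.03 to 0.25). *Kcnmb3*, another beta subunit, differed by -0.12 (from -0.27 to 0.03). The pore gene of the large-conductance channel, *Kcnma1*, differed by -0.09 in its brighter probe set and -0.05 in its dimmer one.

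Beside *Kcnab1*, 11 other accessory genes (*Kcnab*, *Kcne* and *Kcnip*) were measured, and 0 of them had a p under 0.05 in limma even before adjustment. *Kcnab2*, a second beta subunit, had signals of 6.06, 6.05 and 5.94 on the arrays labelled mutant and 6.08, 6.00 and 6.04 on the arrays labelled control. Its values overlapped, at a difference of -0.02 (95% confidence interval from -0.16 to 0.12), an interval that lies below that of *Kcnab1*. *Kcne4*, a small membrane subunit that inhibits several voltage-gated channels, differed by 0.13 (from -0.11 to 0.37). The symbols that begin with Kcn but encode no channel subunit were 3 antisense RNAs (*Kcnd3os*, *Kcnmb4os1* and *Kcnmb4os2*) and *Kcnrg*, a regulator of channel assembly. Of these 4, 0 passed, and the antisense RNAs differed by 0.05, -0.10 and -0.08.

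Many potassium channel signals lay below the array median, and they varied more among the arrays labelled control. Of the 92 genes, 48 were below the array median on all 6 arrays and 29 above it on all 6, while of all 19938 genes 7527 were below and 11481 above. The median SD of a channel gene was 0.0835 among the arrays labelled mutant and 0.132 among those labelled control, and over all genes it was 0.0734 and 0.0892. Control replicate 1 held the highest value of the 6 arrays for 35 channel genes (38%, against 18.6% of all genes), and control replicate 2 the lowest for 34 (37.0%, against 20.7% of all genes). Among the genes below the median on all 6 arrays these shares were 41.7% and 41.7% for channel genes and 26.4% and 24.1% for all genes. The neuron markers were highest on control replicate 1 (7.54) and lowest on control replicate 2 (5.81), and their part in this pattern was not tested.

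**Figure D4:**
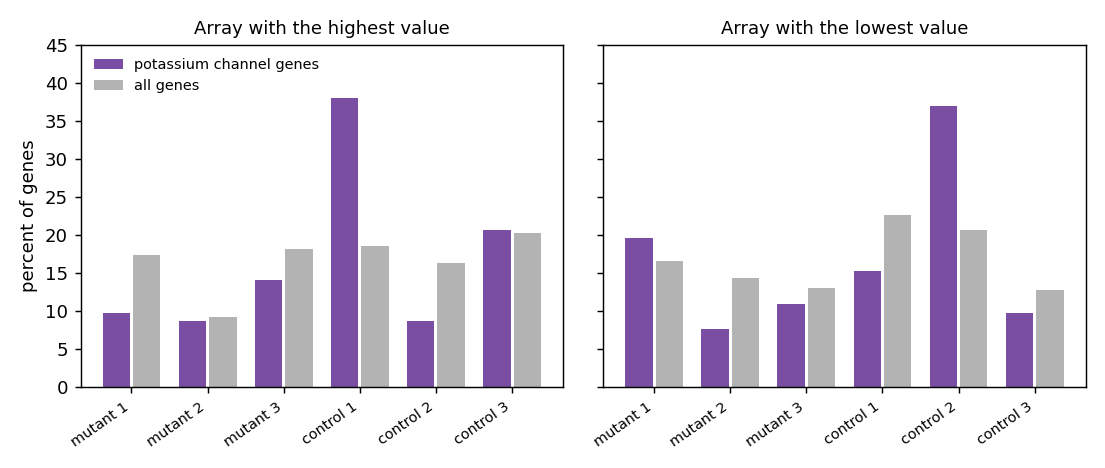
Percent of the 92 potassium channel genes (purple) and of all 19938 genes (grey) whose highest value (left panel) or lowest value (right panel) fell on each array, arrays labelled mutant first. Control replicate 1 held the highest value for 38% of the channel genes and control replicate 2 the lowest for 37.0%.

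Within both groups, 6 of 92 channel genes (6.52%) had their arrays in the order of the neuron markers and 3 (3.26%) in the opposite order, close to the 5.10% and 4.86% of all genes. *Kcnc2* and *Kcnk10*, chosen after their values were seen, are examples of the same order. *Kcnc2*, a fast channel of neurons, had signals of 4.62, 4.07 and 3.74 on the arrays labelled mutant and 4.55, 3.87 and 4.33 on the arrays labelled control, a range of 0.87 and 0.68 within the groups. Its difference between the groups was only -0.11 (adjusted p = 0.99, limma). *Kcnk10*, a leak channel, had 4.17, 4.16 and 3.72 on the arrays labelled mutant and 4.54, 3.69 and 3.94 on the arrays labelled control. In both genes replicate 1 was highest in each group, mutant replicate 3 lowest among the arrays labelled mutant and control replicate 2 lowest among the arrays labelled control, the order of the neuron markers.

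Transporters and channels that work with potassium channels in epithelia were listed as well, namely sodium pump subunits and their *Fxyd* regulators, chloride cotransporters, *Hcn* channels, channel-associated subunits and chloride channels. Of 39 listed genes 34 were measured, and 0 passed after adjustment. At an unadjusted p under 0.05 were 4, where 6.07% of all probe sets were. All 4 were lower in the arrays labelled mutant, the direction of 2.66% of all probe sets. *Cftr*, a chloride channel, had signals of 3.44, 3.15 and 3.38 on the arrays labelled mutant and 3.68, 4.03 and 3.73 on the arrays labelled control, below the median of every array, with a difference of -0.49 (standard error 0.11, adjusted p = 0.264, limma). *Atp1b2*, a beta subunit of the sodium pump, had 7.21, 6.68 and 6.67 on the arrays labelled mutant and 7.24, 7.28 and 7.43 on the arrays labelled control. Mutant replicate 1 lay near the arrays labelled control, and the difference was -0.46 (standard error 0.14, adjusted p = 0.523). Without that array it was -0.64 (adjusted p = 0.0485). *Slc12a3*, a sodium and chloride cotransporter, differed by -0.20 (standard error 0.06, adjusted p = 0.523) and *Ano1*, a calcium-activated chloride channel, by -0.20 (standard error 0.08, adjusted p = 0.781). The median over the 34 genes was -0.06, with 23 below 0. *Atp1b2* and *Ano1* were named after their values were seen.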

How the data were processed

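Total RNA (300 ng per sample) was measured on Mouse Gene 1.0 ST arrays. The authors deposited log2 signals per probe set, and Partek is named in the submitters' processing notes. Its version, the background correction, the normalization and the summarization are not given in any source read here. A further deposited table holds group means (log2) with the authors' p-values, ratios and fold changes, of which only the means were used, to compare group names.

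Groups and replicate numbers came from the sample titles. Of 35556 probe sets, 23410 had at least 1 gene symbol in the platform annotation (21789 had 1, 1621 several) and 12146 are unnamed here. Differences were tested with limma 3.58.1 (R 4.3.3; lmFit, eBayes, no covariates) over the 23410, two-sided, with Benjamini-Hochberg adjustment and a threshold of 0.05; each adjusted p is from this test. The methods' t-test assumed equal variances. Each tube was a biological repeat per the methods. The scripts were tested on simulated data.

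The members, lists and tests were chosen with earlier results of these data known. Named genes were *Kcnq5*, *Kcnj13*, *Kcnab1*, genes past either threshold, genes at an unadjusted p under 0.05 without overlap, and in each channel group the 2 smallest p and the highest signal. Of the partners, 2 were named by smallest p. Alternatives changed the probe sets tested, probe set choice, variance model, array weights, normalization, test, pairing and arrays, and 1 covariate was added after seeing the data.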

Additional observations from a re-analysis of the deposited data

How the results depend on the processing

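*Kcnq5* stayed higher in the arrays labelled mutant and past the threshold under every alternative run except the methods' t-test (difference 1.17, adjusted p = 0.209), which called 0 of all 23410 probe sets. The count of channel genes higher at an adjusted p under 0.05 was 2, and it became 1 with the unnamed probe sets tested, 0 by the methods' t-test, and 1 to 2 with an array left out, *Kcnab1* being the gene lost. The count at a fold of at least 1.5 was 1 to 2 with an array left out, and the count of partners called lower was 0 to 1, *Atp1b2* being the gene added. *Kcnab1* had an adjusted p of 0.397 by the methods' t-test. The *Kcnj13* difference was -0.0271 to 0.21 with an array left out. Samples with the same replicate number were not treated as pairs, since the correlations of their deviations were 0.37, -0.06 and 0.07. With the replicate number as a block, *Kcnq5* (1.17, adjusted p = 0.00718) and *Kcnab1* (0.59, adjusted p = 0.022) were again the channel genes called, and no other named gene changed sides of the threshold. Over all probe sets 77 were called with the block and 85 without it, and 11 channel genes had an unadjusted p under 0.05 with the block and 9 without it.

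Group medians moved by more than their spread in some settings. Without dim probe sets, which leaves 36 channel genes, they were 0.0909 (*Kcna* to *Kcnd*), 0.19 (*Kcnk*), 0.57 (*Kcnq*), 0.0108 (calcium-activated) and 0.0505 (antisense RNAs and *Kcnrg*). In that setting the last value was that of *Kcnd3os* alone, and the *Kcnq* value came from *Kcnq1* and *Kcnq5* only. The *Kcnj* median was -0.0137 with array weights, and the accessory median 0.0657 with array medians centred. With an array left out the medians ran from -0.15 to -0.00589 for the modifying subunits, -0.0224 to 0.0279 for *Kcnj*, -0.0592 to 0.0713 for *Kcnk*, -0.0795 to 0.0192 for the calcium-activated group and -0.00855 to 0.0872 for the accessory genes. Some uncalled differences near 0 changed sign with an array left out, namely *Kcna6* (-0.0084 to 0.21), *Kcnab2* (-0.0444 to 0.0186, and 0.0027 with array medians centred), *Kcnd3os* (-0.0851 to 0.22), *Kcnk1* (-0.22 to 0.0707), *Kcnmb4os1* (-0.22 to 0.0525) and *Kcnmb4os2* (-0.14 to 0.0047). The cause was not tested. For genes below the array median, signal over background limits what the arrays can show.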
